A study of Mus musculus with 6 samples.

Results

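Radial glia are the elongated progenitor cells of the embryonic neural tube. Their cell bodies line the ventricle and their long processes reach the outer surface, so they both divide to produce neurons and guide the young neurons outward. In the ventral midbrain the radial glia of the floor plate give rise to dopaminergic neurons, and radial glia of neighbouring domains give rise to GABAergic, glutamatergic and motor neurons.

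The 10 radial glia marker genes examined here were Fabp7, Slc1a3, Nes, Vim, Ednrb, Ttyh1, Mfge8, Ddah1, Ptn and Hmga2. They were taken as every probe set, a group of short probes that together measure 1 transcript, whose platform symbol was exactly one of these names. This gave 33 probe sets of the 45037 on the array other than controls, and 10 genes of the 18193 named by probe sets with 1 symbol. Of the 33 probe sets, 27 passed the filter on dim signals, by exceeding the 40th percentile of their array on at least 3 arrays, and every one of the 10 genes had at least 1 of them.

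RNA was measured on 6 arrays, 3 per group, in cells that flow cytometry had sorted out of the ventral mesencephalon of untreated mouse embryos of embryonic day 12.5. The first group held GFP-positive cells of Ngn2-GFP mice of strain CD1/129, in which GFP reports the proneural transcription factor gene Neurog2, and which the labels call midbrain dopaminergic progenitors. The second group held GFP-negative cells of Lmx1a-GFP mice of strain C57BL/6, in which GFP reports a transcription factor of dopaminergic progenitors, and which the labels call a non-dopaminergic progenitor population. They are called Ngn2-GFP positive and Lmx1a-GFP negative cells here. The design text calls the samples biological replicates, and the number of embryos behind each is not given in the sources used here. Strain, mouse line, reporter and sort gate differed together between the groups and cannot be told apart, and each population was sorted by its reporter and not by a radial glial marker. In such bulk samples fewer radial glia and less RNA per radial glial cell cannot be told apart either.

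The arrays themselves were not alike. The hybridization spike-ins, bacterial and phage RNAs added to every sample, averaged 2293 and 2352 on Ngn2-GFP positive replicates 1 and 2, against 5018 on Ngn2-GFP positive replicate 3 and 4254 to 6560 on the Lmx1a-GFP negative arrays. The ratio of 3' to 5' signal of Gapdh, a measure of how complete the labelled RNA was, was 4.41 and 4.73 on those replicates, 8.84 on Ngn2-GFP positive replicate 3 and 5.94 to 9.21 on the Lmx1a-GFP negative arrays. The same ratio of actin was 1.16, 1.15 and 1.13 on the Ngn2-GFP positive arrays. It was 0.969 to 1.14 on the Lmx1a-GFP negative arrays, so it did not split in this way. The difference in spike-in level splits the arrays into what is here named the spike-in batch. It lay within the Ngn2-GFP positive group, so results below are given for all 6 arrays and, for the 10 genes and the calls of the other lists, also from a batch-block fit, which adds the side of this split as a term and rests on Ngn2-GFP positive replicate 3 alone. Signals are the deposited intensities on their linear scale, and differences are log2 fold changes, Ngn2-GFP positive minus Lmx1a-GFP negative, each followed by its standard error (SE) from limma fitted to all tested genes, with n = 3 arrays per group.

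The promoter regions of the 3 genes with the largest differences by brightest probe set are shown first, because Fabp7 is a known target of Notch signalling in radial glia and the other 2 serve for comparison. Each is the 250 bases before the annotated start of the gene, 5′ to 3′ on the gene's own strand, from RefSeq on build GRCm38.p6. Capitals mark TGGGAA, read on either strand, the core recognised by RBPJ, the DNA-binding factor of the Notch pathway.
Ednrb, chr14:103843702-103843951, minus strand: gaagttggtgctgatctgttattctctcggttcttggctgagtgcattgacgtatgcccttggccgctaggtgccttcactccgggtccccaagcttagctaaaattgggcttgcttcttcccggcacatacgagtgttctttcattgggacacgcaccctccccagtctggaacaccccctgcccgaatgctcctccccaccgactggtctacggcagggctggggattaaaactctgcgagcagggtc
Hmga2, chr10:120476470-120476719, minus strand: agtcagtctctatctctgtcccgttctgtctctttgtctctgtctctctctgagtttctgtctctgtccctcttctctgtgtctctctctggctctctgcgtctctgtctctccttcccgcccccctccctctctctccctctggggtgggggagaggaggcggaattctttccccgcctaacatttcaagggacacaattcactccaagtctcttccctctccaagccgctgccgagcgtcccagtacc
Fabp7, chr10:57784673-57784922, plus strand: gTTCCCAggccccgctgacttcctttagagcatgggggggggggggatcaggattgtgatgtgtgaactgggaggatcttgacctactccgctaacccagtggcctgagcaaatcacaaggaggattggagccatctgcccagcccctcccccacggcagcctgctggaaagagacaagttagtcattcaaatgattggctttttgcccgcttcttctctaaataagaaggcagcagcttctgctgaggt
All 10 genes had a promoter window in the RefSeq table, and TGGGAA occurred in the windows, which also take in 50 bases after the start, of 3 of them, Fabp7, Mfge8 and Ptn, against 25.6% of all 32841 windows. In Fabp7 the match lay on the opposite strand at base -249 from the start, so it reads TTCCCA above. The E-box CAGATG, searched on both strands as all motifs were, was found in 2 of the 10 windows, those of Fabp7 and Ddah1, against 17.2% of all windows. CAGCTG was found in 0 of the 10, against 16.3%. No 2 matches overlapped in these windows, and a match is only a run of letters.

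All 10 genes had values above the 40th percentile on all 6 arrays in the probe set that represents them, the tested one with the highest mean log2 signal. That level is a filter on dim signals and not a call of presence. Hmga2, for instance, read 18.8 on Ngn2-GFP positive replicate 1, under the median signal of that array (24.8). Fabp7 was lower in Ngn2-GFP positive cells and was the 1 member of 10 to pass the threshold of 0.05 on adjusted p. Of all 12044 tested genes 1.06% passed, 0.639% in that direction. No member passed in the other direction by limma, which 0.423% of tested genes did. At an unadjusted p under 0.05, 6 members were lower, against 5.08% of all genes, and 0 were higher, against 5.68%. The fitted difference was negative for all 10 genes, against 47.7% of all tested genes, although Nes and Mfge8 were far within 1 SE of 0 and Ddah1 close to 1 SE from it. The median of the 10 was -0.68, beside 0.03 over all tested genes. In the batch-block fit no member passed in either direction (0.216% of all genes passed as lower and 0.0664% as higher), 1 was lower at an unadjusted p under 0.05, 8 of 10 were negative and the median was -0.31, beside 0.02 over all genes.

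**Figure D1:**
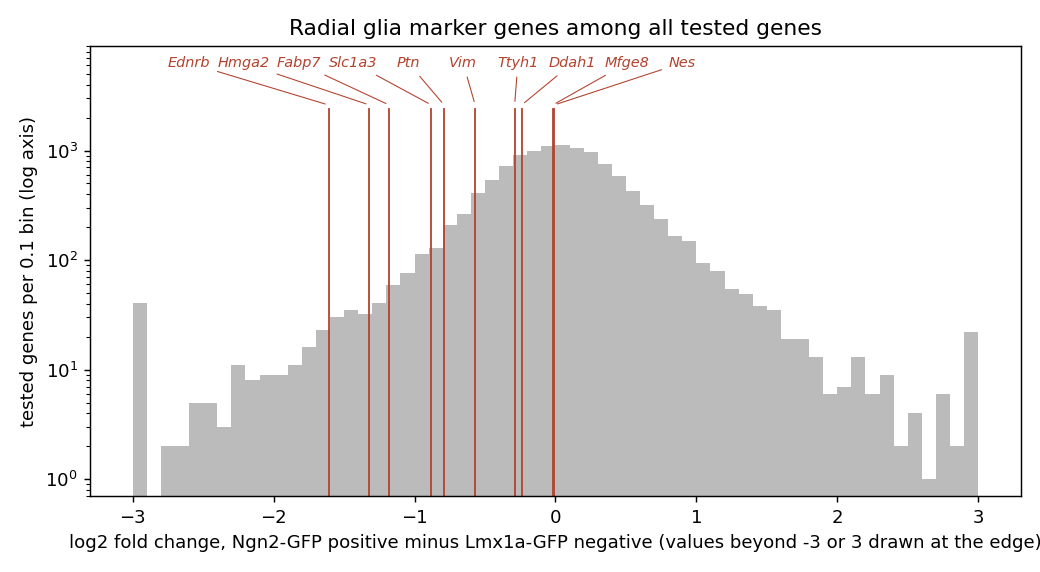
Histogram of the log2 fold changes (Ngn2-GFP positive minus Lmx1a-GFP negative) of the 12044 tested genes in grey, on a log count axis, with the 10 radial glia marker genes as red lines. The members run from -1.61 for Ednrb to -0.01 for Nes, with none to the right of 0.

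The groups did not overlap for 4 of the 10 genes, Fabp7, Slc1a3, Ednrb and Hmga2, all lower in Ngn2-GFP positive cells. Over all tested genes 7.25% did so in that direction and 8.21% in the other. Summed over the 10 genes, signal was 4465, 4524 and 6940 on the Ngn2-GFP positive arrays and 8037 to 10100 on the Lmx1a-GFP negative arrays. Ngn2-GFP positive replicate 3 thus lay between its own group and the other. Most of each sum came from Fabp7 and Vim.

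**Figure D2:**
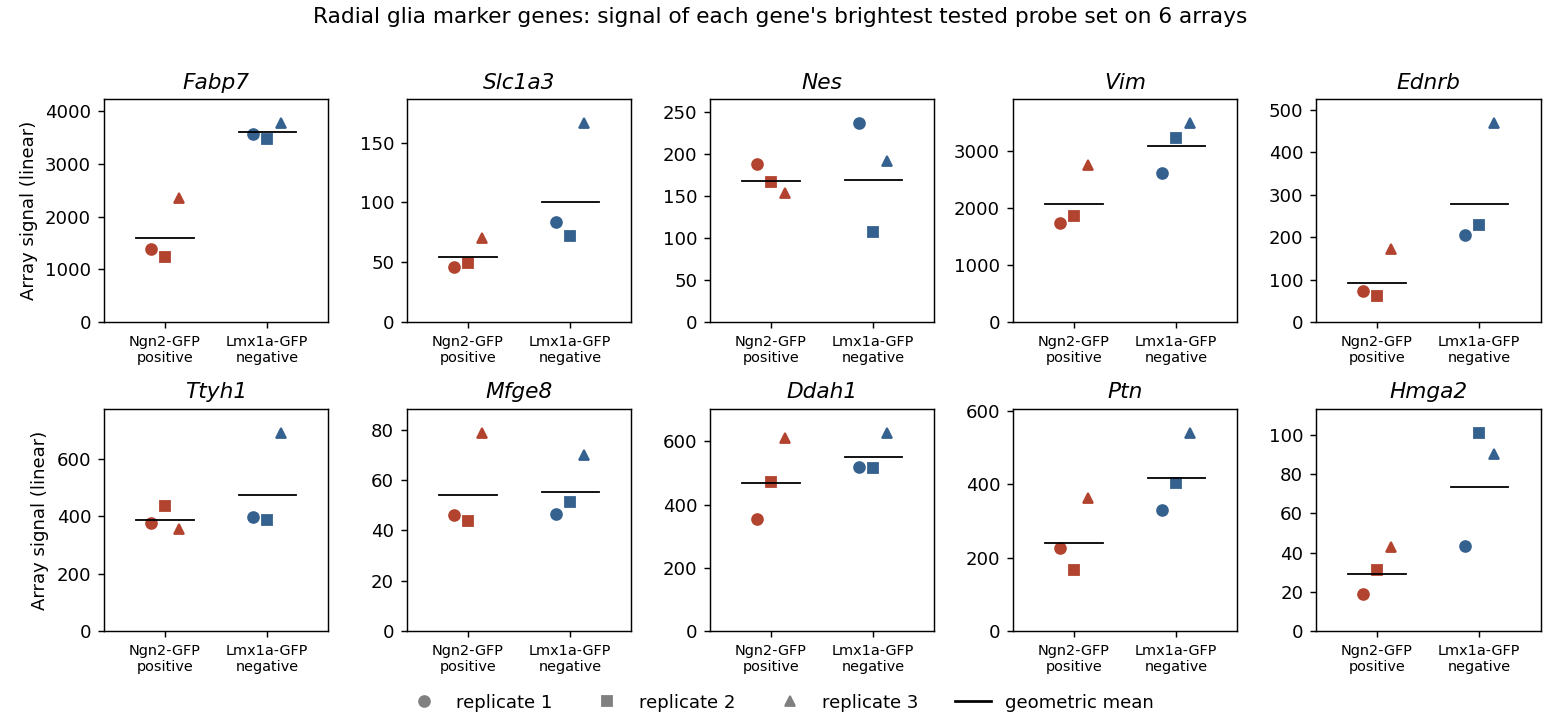
Array signal on a linear axis from 0 for each of the 10 genes, Ngn2-GFP positive arrays in red on the left and Lmx1a-GFP negative arrays in blue on the right, with marker shapes for replicates and bars for the geometric mean. Fabp7, Slc1a3, Ednrb and Hmga2 show no overlap between the groups, and in 8 of the 10 panels Ngn2-GFP positive replicate 3 (triangle) is the highest of its group.

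The first set of members works in the cytoplasm and plasma membrane on lipids and small molecules. Fabp7, the brain lipid-binding protein that carries fatty acids in radial glia, has a single probe set on this array. Its signal was 1393, 1242 and 2346 in Ngn2-GFP positive cells, against 3568, 3471 and 3772 in Lmx1a-GFP negative cells. The 3 Lmx1a-GFP negative values lay close together, with an SD of 0.06 on the log2 scale, while those of Ngn2-GFP positive cells had an SD of 0.49, with replicate 3 nearest to the other group. The difference was -1.18 (SE 0.26), a signal 0.443 times that of Lmx1a-GFP negative cells, with an adjusted p of 0.0494 by limma. By p-value Fabp7 ranked 128th of the 128 genes past the threshold, so it was the last gene called. The call was lost with any single array left out except Ngn2-GFP positive replicate 3. Adjusted p was 0.259 and 0.345 without Ngn2-GFP positive replicates 1 and 2, and 0.16, 0.18 and 0.178 without Lmx1a-GFP negative replicates 1, 2 and 3. Without Ngn2-GFP positive replicate 3 it was 0.000535, at a difference of -1.45. In the batch-block fit the difference was -0.62 (adjusted p = 0.374).

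Slc1a3 encodes GLAST, the transporter that clears glutamate and aspartate into radial glia and astrocytes. Its brightest probe set, 1452031_at, read 45.7, 49.7 and 70.5 in Ngn2-GFP positive cells, against 83.6, 71.9 and 166 in Lmx1a-GFP negative cells. The groups met closely without overlapping, since Ngn2-GFP positive replicate 3 and Lmx1a-GFP negative replicate 2 were nearly equal. The difference of -0.88 (SE 0.36) did not pass (adjusted p = 0.388). A second probe set, 1426340_at, was more clearly separated, at 40.7, 31.5 and 29 in Ngn2-GFP positive cells, against 60.8, 88.9 and 109 in Lmx1a-GFP negative cells. It differed by -1.33 (SE 0.35, adjusted p = 0.189 over all probe sets) and by -1.53 (adjusted p = 0.618) in the batch-block fit. The probe set 1426341_at overlapped fully, with a difference of -0.16 (SE 0.4). Another, 1439072_at, did not exceed the filter level on any Ngn2-GFP positive array, and Lmx1a-GFP negative cells were at least 1.57-fold brighter (adjusted p = 0.53 over all probe sets). The 2 other Slc1a3 probe sets failed the filter, with signals of 0.398 to 12.4 in Ngn2-GFP positive and 0.973 to 28.9 in Lmx1a-GFP negative cells.

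Ddah1 encodes an enzyme that breaks down asymmetric dimethylarginine, an inhibitor of nitric oxide synthases. Its brightest probe set read 355, 471 and 611 in Ngn2-GFP positive cells, against 519, 514 and 627 in Lmx1a-GFP negative cells. These overlapped, and the difference of -0.24 (SE 0.23, 95% confidence interval -0.73 to 0.26) did not pass (adjusted p = 0.732). Its 2 other tested probe sets differed by 0.09 (SE 0.27) and 0.1 (SE 0.23), both on the positive side, and 2 more failed the filter.

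Among receptors and secreted factors, Ednrb had the most negative difference of the 10 genes by brightest probe set on all 6 arrays. Hmga2 was the more negative when probe sets were averaged (-1.54, against -1.39 for Ednrb) and in the batch-block fit (-0.77, against -0.7). Ednrb encodes the endothelin B receptor, a G protein-coupled receptor. Its brightest probe set, 1437347_at, had a signal of 72.7, 61.1 and 172 in Ngn2-GFP positive cells, against 204, 228 and 468 in Lmx1a-GFP negative cells. Ngn2-GFP positive replicate 3 stood well above its own group but below every Lmx1a-GFP negative array, and Lmx1a-GFP negative replicate 3 stood above all others. The difference was -1.61 (SE 0.4), and 1.17% of tested genes had a lower value. It did not pass (adjusted p = 0.0988), but did so at 0.0385 when the probe sets of each gene were averaged, and at 0.0103 without Ngn2-GFP positive replicate 3 (-2.07). Without any other array adjusted p was 0.116 to 0.425.

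The other 2 Ednrb probe sets did not show the high value of Ngn2-GFP positive replicate 3. The first, 1423594_a_at, read 87.2, 91 and 76.1 in Ngn2-GFP positive cells, against 195, 145 and 350 in Lmx1a-GFP negative cells. The second, 1426314_at, read 57, 40.9 and 59.3 in Ngn2-GFP positive cells, against 131, 90.7 and 143 in Lmx1a-GFP negative cells. Groups were apart in both, with differences of -1.35 (SE 0.31) and -1.21 (SE 0.31), neither past the threshold over all probe sets (adjusted p = 0.108 and 0.166). In the batch-block fit the 3 Ednrb probe sets differed by -0.7, -1.5 and -1.01, in the order given.

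Ptn encodes pleiotrophin, a secreted heparin-binding growth factor. Its brightest probe set, 1448254_at, read 228, 168 and 362 in Ngn2-GFP positive cells, against 331, 403 and 541 in Lmx1a-GFP negative cells. Replicates 1 and 2 of the Ngn2-GFP positive group were below all Lmx1a-GFP negative arrays and replicate 3 was not, and the difference of -0.79 (SE 0.29) did not pass (adjusted p = 0.321). A second probe set, 1416211_a_at, gave 189, 174 and 135 in Ngn2-GFP positive cells, against 124, 80.2 and 217 in Lmx1a-GFP negative cells. Its difference had the opposite sign, 0.35 (SE 0.33), so the 2 tested probe sets set no direction for Ptn. The third was under the filter level on all 6 arrays.

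Mfge8, a secreted glycoprotein that binds phosphatidylserine and integrins, has 1 probe set. It read 46, 43.9 and 78.8 in Ngn2-GFP positive cells, against 46.7, 51.2 and 70 in Lmx1a-GFP negative cells. The groups overlapped and replicate 3 was the highest array in each. The difference was -0.02 (SE 0.35, 95% confidence interval -0.79 to 0.74).

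Ttyh1, a membrane protein of the tweety family made in neural stem cells, was measured by 4 tested probe sets. The brightest, 1422694_at, read 377, 436 and 357 in Ngn2-GFP positive cells, against 398, 388 and 692 in Lmx1a-GFP negative cells, an overlap with a difference of -0.29 (SE 0.25, adjusted p = 0.694). The next, 1422695_at, read 232, 227 and 459 in Ngn2-GFP positive cells, against 445, 540 and 700 in Lmx1a-GFP negative cells. The third, 1426617_a_at, read 47.7, 44.1 and 37.4 in Ngn2-GFP positive cells, against 115, 65.8 and 92.3 in Lmx1a-GFP negative cells. So the groups were apart in the third, as in the dimmest, 1422696_at, overlapped at a single array in the second and overlapped more widely in the first. The dimmer probe sets showed larger differences than the brightest one, -0.93 (SE 0.29), -1.05 (SE 0.33) and -1.04 (SE 0.65), none of them past the threshold (adjusted p = 0.298, 0.31 and 0.652 over all probe sets).

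Nes and Vim encode nestin and vimentin, the intermediate filament proteins of the radial glial process. No Nes probe set passed, and the groups overlapped in all 3. The brightest read 188, 166 and 153 in Ngn2-GFP positive cells, against 236, 107 and 191 in Lmx1a-GFP negative cells, whose spread enclosed the Ngn2-GFP positive values. The difference was -0.01 (SE 0.29), with a 95% confidence interval of -0.63 to 0.62. Those of the other 2 were -0.2 (SE 0.32) and 0.11 (SE 0.42).

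Vim gave 2 different pictures. In its brightest probe set, 1456292_a_at, signal was 1741, 1854 and 2747 in Ngn2-GFP positive cells, against 2606, 3219 and 3482 in Lmx1a-GFP negative cells. In 1450641_at it was 1056, 1188 and 754 in Ngn2-GFP positive cells, against 976, 832 and 1149 in Lmx1a-GFP negative cells. Ngn2-GFP positive replicate 3 was the highest of its group in 1456292_a_at and the lowest of all 6 arrays in 1450641_at. The brightest probe set differed by -0.57 (SE 0.24, adjusted p = 0.409), and passed without Ngn2-GFP positive replicate 3 (-0.78, adjusted p = 0.0249), while 1450641_at differed by 0.01 (SE 0.23). The remaining one, 1438118_x_at, followed the brightest, at -0.51 (SE 0.23). With quantile normalization the difference of the gene was -0.18, and with the probe sets marked _s_at, _x_at and _a_at left out it was 0.01.

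Hmga2, a chromatin protein that binds AT-rich DNA and supports the self-renewal of fetal neural stem cells in mouse, had the largest difference among the 27 tested probe sets of the 10 genes. In 1450780_s_at its signal was 18.4, 20.6 and 18.4 in Ngn2-GFP positive cells, against 59.4, 97.3 and 70.9 in Lmx1a-GFP negative cells. The 3 Ngn2-GFP positive arrays were nearly equal, replicate 3 included, and every Lmx1a-GFP negative array was far above them. The difference was -1.96 (SE 0.39), a signal 0.257 times that of Lmx1a-GFP negative cells, and passed over all probe sets (adjusted p = 0.0423). It was the 1 probe set of 27 to do so as lower, against 0.35% of all 27738 tested probe sets. None passed as higher, against 0.187%, and 0.537% of all probe sets passed in either direction. All 3 Ngn2-GFP positive values of 1450780_s_at were dim, below the median signal of their arrays (24.8, 22.2 and 19.3). With log2 of the signal plus 32 the difference was smaller, at -1.06 (SE 0.23). Without that offset its size was stable with an array left out, at -2.12 to -1.76, and in the batch-block fit, at -2.02. The call was not, since adjusted p was 0.385 with that block. It was 0.147 and 0.141 without Ngn2-GFP positive replicates 1 and 2, and 0.0862, 0.247 and 0.125 without Lmx1a-GFP negative replicates 1, 2 and 3. Without Ngn2-GFP positive replicate 3 it was 0.0316.

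Hmga2 is represented in the gene fit by a slightly brighter probe set over these 6 arrays, 1450781_at. It read 18.8, 31.4 and 42.9 in Ngn2-GFP positive cells, against 43.3, 101 and 90.2 in Lmx1a-GFP negative cells. The highest Ngn2-GFP positive and the lowest Lmx1a-GFP negative value were almost equal, and the difference of -1.32 (SE 0.43) did not pass (adjusted p = 0.267). The probe set 1422851_at was also apart between the groups, at -1.35 (SE 0.5, adjusted p = 0.43 over all probe sets). The last one was under the filter level on all arrays.

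Across the 27 tested probe sets 22 had negative differences, against 44.8% of all probe sets, with a median of -0.79 beside 0.06. In 12 of the 27 every Ngn2-GFP positive array was below every Lmx1a-GFP negative one, which held for 5.98% of all probe sets. None was apart in the other direction, against 7.96%. One of the 12, Slc1a3 1439072_at, passed the filter only through the Lmx1a-GFP negative arrays, so it had to differ. Among probe sets above the filter level on at least 1 array of each group, 11 of 26 were apart as lower and 0 as higher, against 5.5% and 7.55% of all 27419 such probe sets, and the median was -0.68 beside 0.06. The 12 came from 5 genes, with 1 for Fabp7, 3 each for Slc1a3, Ednrb and Hmga2, and 2 for Ttyh1. Probe sets of 1 gene read the same transcripts and are not independent. Of the 8 members with more than 1 tested probe set, 4 had differences of both signs, Nes, Vim, Ddah1 and Ptn, against 55.4% of all 6177 such genes. The range of differences within a gene had a median of 0.61 for the members, beside 0.57 over all such genes, and was widest for Slc1a3 (1.48) and Ptn (1.14).

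**Figure D3:**
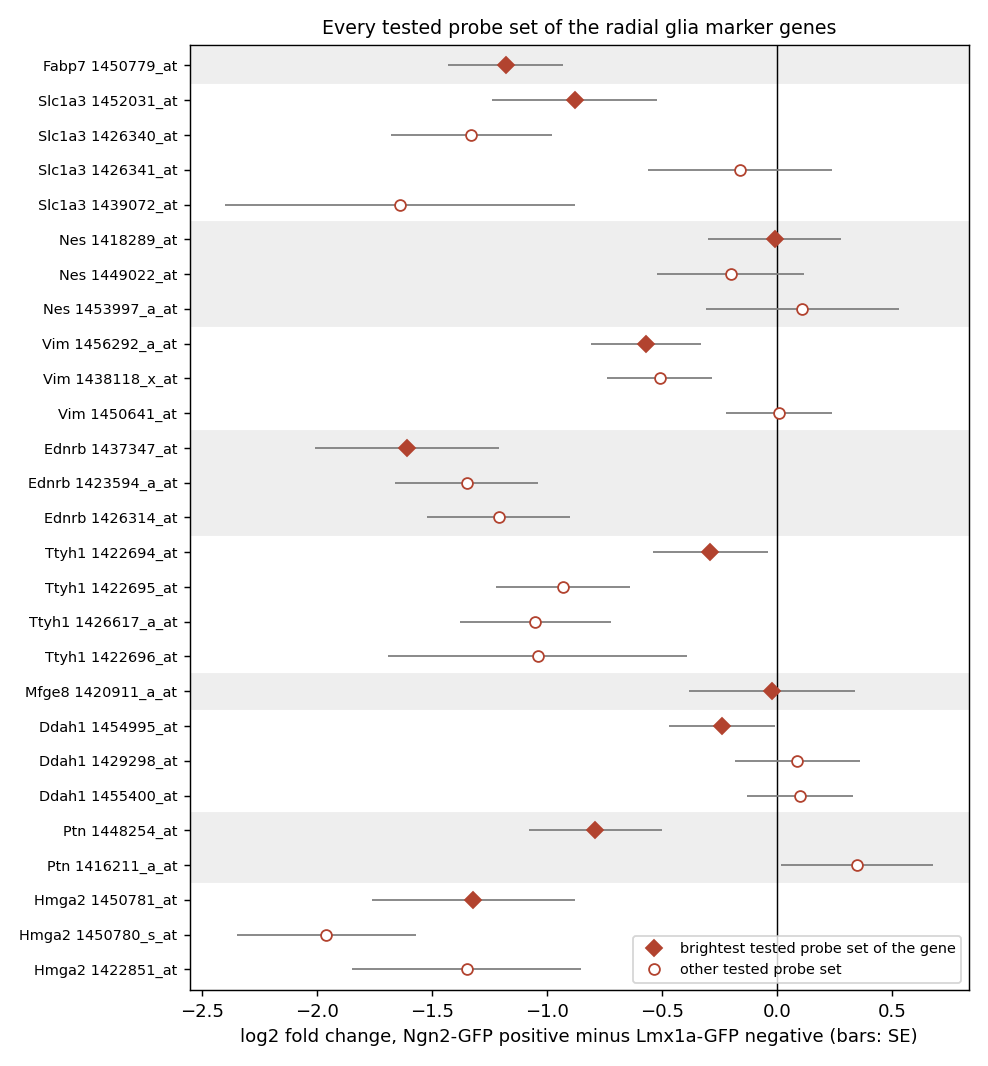
Log2 fold change, Ngn2-GFP positive minus Lmx1a-GFP negative, of the 27 tested probe sets, grouped by gene, with bars for the SE; filled diamonds are the brightest probe set of each gene. All probe sets of Slc1a3, Ednrb, Ttyh1 and Hmga2 lie to the left of 0, while those of Nes, Vim, Ddah1 and Ptn lie on both sides.

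Ngn2-GFP positive replicate 3 departed from replicates 1 and 2 in both directions. It was higher than their mean in 15 of the 27 tested probe sets and lower in 12. In all 8 members with more than 1 tested probe set, some probe sets of the gene were higher on replicate 3 and others lower. Over all genes with more than 1 tested probe set this held for 60.9%, and over those with 3 or more for 77.3%. In Ednrb the shift was 1.37 on the log2 scale for 1437347_at and -0.23 for 1423594_a_at. In Vim it was 0.61 for 1456292_a_at and -0.57 for 1450641_at, and in Ptn 0.89 for 1448254_at and -0.42 for 1416211_a_at. The spike-in level and the Gapdh 3' to 5' ratio differ between these arrays as given above. Their part in these shifts was not tested.

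**Figure D4:**
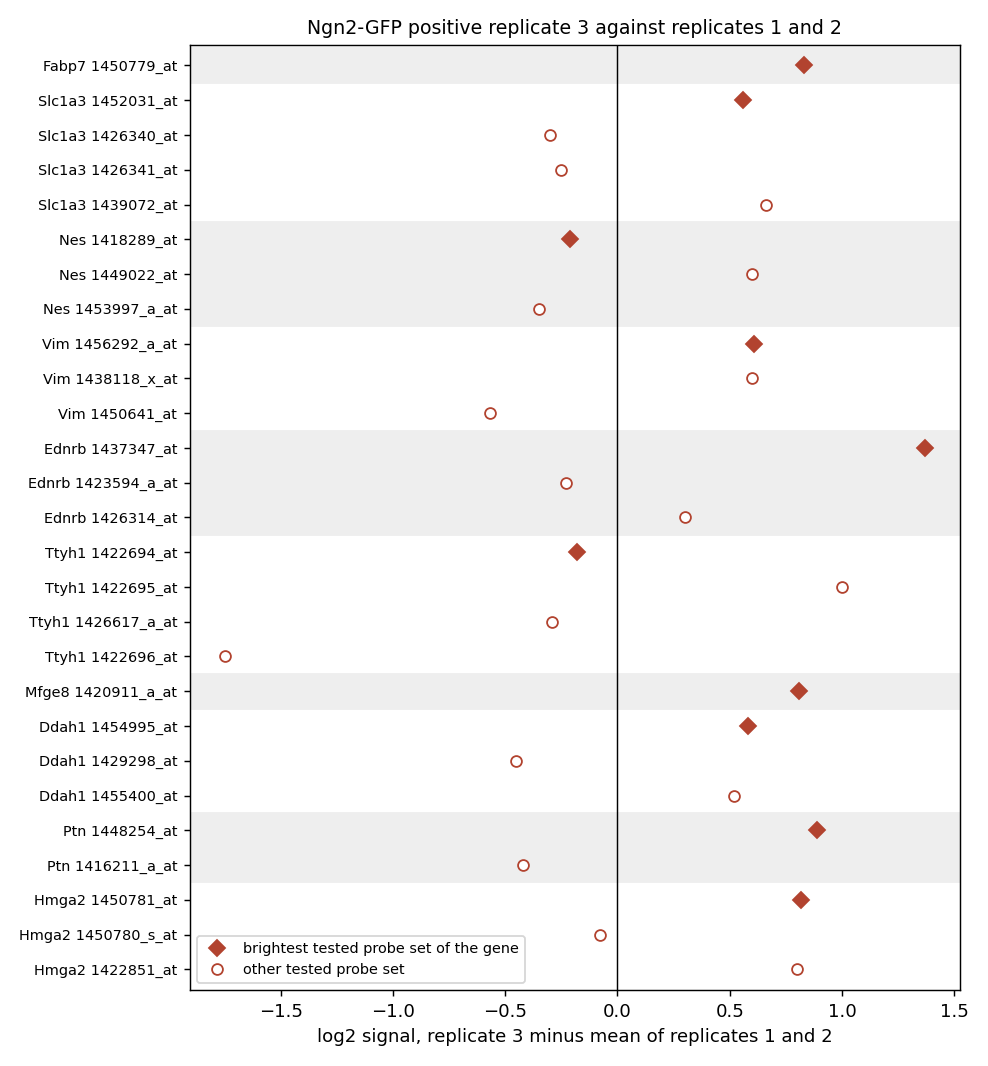
Log2 signal of Ngn2-GFP positive replicate 3 minus the mean of replicates 1 and 2 for the 27 tested probe sets, grouped by gene; filled diamonds are the brightest probe set of each gene. Points of one gene fall on both sides of 0 in all 8 genes with more than 1 tested probe set, from -1.75 (Ttyh1) to 1.37 (Ednrb).

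Most of the 10 differences moved with the handling of that array. Without it, Fabp7, Vim and Ednrb passed, 3 of 10 members, against 2.81% of all tested genes passing as lower in that fit. Group and spike-in batch then coincide and cannot be told apart. In the batch-block fit the differences shrank to -0.62 for Fabp7, -0.5 for Slc1a3, -0.7 for Ednrb, -0.2 for Ptn, -0.16 for Vim and -0.77 for Hmga2. In that fit those of Mfge8 (0.52) and Ddah1 (0.15) were positive, that of Ttyh1 was -0.41 and that of Nes -0.15, against 0.06 for Nes without Ngn2-GFP positive replicate 3. At an unadjusted p under 0.05, 1 member was lower in it, Fabp7, against 3.75% of all genes.

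**Figure D5:**
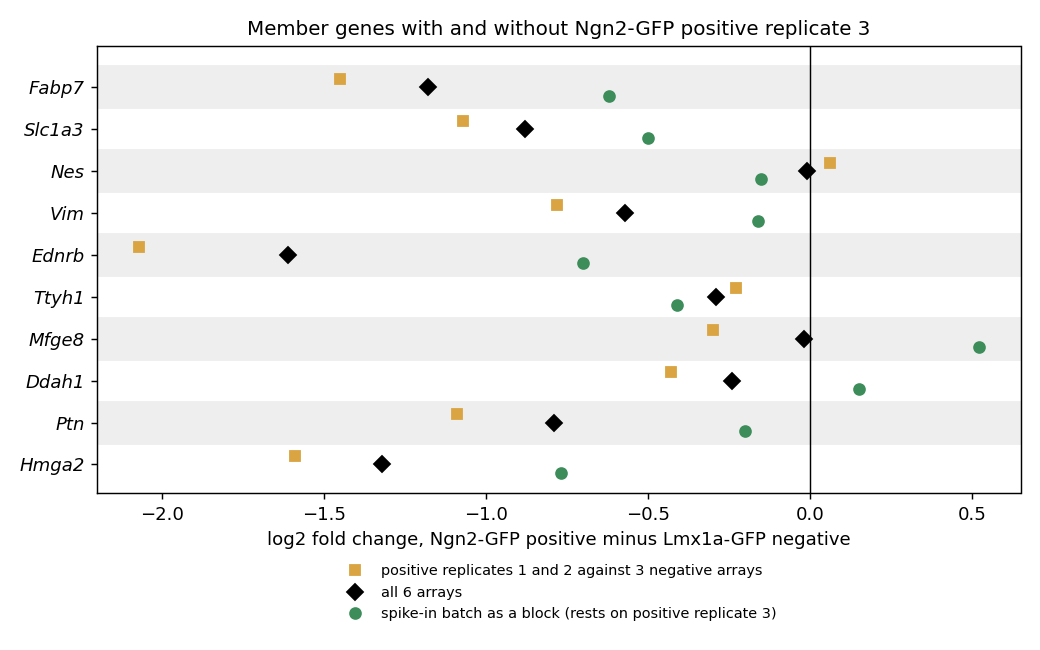
Log2 fold change of the 10 genes, each by its brightest tested probe set, Ngn2-GFP positive minus Lmx1a-GFP negative. Squares are without Ngn2-GFP positive replicate 3, diamonds on all 6 arrays and circles from the batch-block fit. Circles lie nearer to 0 than squares for Fabp7, Slc1a3, Vim, Ednrb, Ptn and Hmga2, and Nes, Mfge8 and Ddah1 change side.

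Other genes of radial glia and neural progenitors were taken from a list of 24, of which 21 were tested. In Ngn2-GFP positive cells 3 were lower and none was higher past the threshold, against 0.639% and 0.423% of all tested genes. Of the 21, 15 were negative, against 47.7% of all genes, and the median was -0.38, beside 0.03. The 3 lower genes were Pax6, Fgfbp3 and Zfp36l1. Pax6, a transcription factor of progenitors, read 97.5, 129 and 44.3 in Ngn2-GFP positive cells, against 397, 447 and 315 in Lmx1a-GFP negative cells (-2.22, SE 0.34, adjusted p = 0.00698). It was the 1 gene of the list that also passed in the batch-block fit (-3.11, adjusted p = 0.00268).

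Fgfbp3, a secreted protein that binds fibroblast growth factors, read 345, 273 and 411 in Ngn2-GFP positive cells, against 823, 934 and 1269 in Lmx1a-GFP negative cells. Its difference was -1.55 (SE 0.23, adjusted p = 0.00544), and passed with any single array left out (adjusted p = 0.00392 to 0.0405) but not in the batch-block fit (-1.27, adjusted p = 0.176). Zfp36l1, a protein that binds AU-rich messenger RNAs and speeds their decay, read 259, 152 and 333 in Ngn2-GFP positive cells, against 633, 864 and 725 in Lmx1a-GFP negative cells. It differed by -1.64 (SE 0.27, adjusted p = 0.0102), and missed the threshold without Lmx1a-GFP negative replicate 2 (0.0633) or 3 (0.0527) and in the batch-block fit (-1.14, adjusted p = 0.359). The count of lower genes was 5 without Ngn2-GFP positive replicate 3, 2 without Lmx1a-GFP negative replicates 2 or 3 and 3 without each other array. Of all tested genes 2.81% passed as lower without Ngn2-GFP positive replicate 3, and 0.248% to 0.501% without any other array. In the batch-block fit the median of the list was -0.12, beside 0.02 over all genes.

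The radial glial regulators Sox2 and Hes5 did not pass, at -0.22 (SE 0.24) and -0.53 (SE 0.25). Prom1, which encodes the apical membrane protein prominin, had a positive value (0.28, SE 0.24), and so did Sox21 (0.59, SE 0.23) and Notch1 (0.3, SE 0.26), none past the threshold. Of the 21 tested genes of this list, the groups were apart for 6 as lower and 1 as higher, against 7.25% and 8.21% of all genes. At an unadjusted p under 0.05 in limma, 7 were lower and 1 was higher, against 5.08% and 5.68%. The radial glial genes on the array thus did not all lie on the same side, although 15 of these 21 were negative.

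None of 18 tested paralogs and binding partners of the members passed in either direction, with 8 negative and a median of 0.08, or -0.08 in the batch-block fit. At an unadjusted p under 0.05, 2 were lower and 1 was higher in limma, against 5.08% and 5.68% of all genes. The groups were apart for Nefm as higher, against 8.21% of all genes, and for Ina and Ttyh3 as lower, against 7.25%. Fabp5, the paralog of Fabp7, read 3057, 2836 and 5768 in Ngn2-GFP positive cells, against 5638, 6003 and 4938 in Lmx1a-GFP negative cells. Ngn2-GFP positive replicate 3 lay among the Lmx1a-GFP negative arrays there. Mdk, the paralog of Ptn, read 389, 479 and 315 in Ngn2-GFP positive cells, against 399, 267 and 564 in Lmx1a-GFP negative cells, with full overlap. Nefl, a neurofilament gene and with Fabp5 the brightest of the list, differed by 0.08 (SE 0.26). Ligands of the endothelin receptor, Edn1 and Edn3, failed the filter, and Gfap, the filament protein of later astrocytes, was under the filter level on all 6 arrays.

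The gene whose centred log2 signals over the 6 arrays lay nearest to the median profile of the members was Sox9, a transcription factor of neural progenitors, at a root mean square distance of 0.058. Its signal was 98.7, 100 and 142 in Ngn2-GFP positive cells, against 155, 177 and 229 in Lmx1a-GFP negative cells (-0.72, SE 0.26, adjusted p = 0.319). The next were Repin1 (0.074), Nipsnap2 (0.076), Slc25a25 (0.09) and Dcp1a (0.099). Nearest to Fabp7 were Ppp2r2c (0.132), Tpp1 (0.173), Pitrm1 (0.18), Bambi (0.182) and Mrpl10 (0.196). These are distances over 6 arrays among 12044 genes and are descriptive.

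Markers of other cells in the sorts moved with the groups in part. Genes of embryonic red blood cells summed to 308 to 625 on the Ngn2-GFP positive arrays and 7508 to 14920 on the Lmx1a-GFP negative arrays. All 5 tested genes passed as lower in Ngn2-GFP positive cells, against 0.639% of all tested genes. Hba-x and Hbb-bh1, embryonic globin genes, were under the filter level on every Ngn2-GFP positive array. They were tested only through the Lmx1a-GFP negative arrays, so they had to be lower. Those arrays were at least 56.1-fold and 55-fold brighter. Hbb-y, another, differed by -4.65 and passed with any single array left out. Alas2, the gene of the first enzyme of erythroid heme synthesis, differed by -4.92, but by -2.33 in the batch-block fit (adjusted p = 0.623). It missed the threshold with any single array left out (adjusted p = 0.0549 to 0.145) except Ngn2-GFP positive replicate 3 (0.00176). Slc4a1, the remaining tested gene, differed by -4.37. In the batch-block fit Hbb-y differed by -4.02 and Slc4a1 by -4.48. Genes of microglia and macrophages summed to 21 to 36 on the Ngn2-GFP positive arrays and 361 to 755 on the Lmx1a-GFP negative arrays. Of the 4 tested, 3 (Csf1r, Tyrobp and Aif1) were under the filter level on every Ngn2-GFP positive array, so they were tested only because they were bright in Lmx1a-GFP negative cells. There they were at least 15.4-fold, 11.5-fold and 3.64-fold brighter, and with a Lmx1a-GFP negative array left out these probe sets were no longer tested. The other, C1qb, differed by -3.61 (adjusted p = 0.000703), and passed with any single array left out but not in the batch-block fit (-3.24, adjusted p = 0.052). With a Lmx1a-GFP negative array left out, Aif1 and Csf1r were tested through other probe sets. Aif1 then differed by 0.46 to 0.76, in the opposite direction, and Csf1r by -2.6 to -2, none past the threshold. In the batch-block fit Csf1r, Tyrobp and Aif1 differed by -7.63, -5.28 and -5.55. The part of the red blood cell and microglial genes in the differences of the radial glia markers was not tested. Genes of the endothelium, whose cells also make Ednrb and Vim, were at or near background, with 6 of 8 under the filter level on all 6 arrays and sums of 79 to 101 in Ngn2-GFP positive and 39 to 83 in Lmx1a-GFP negative cells. The defining genes Pecam1 and Cdh5 were among the 6, and the 1 tested gene, Egfl7, overlapped between the groups. Kdr, the receptor of vascular endothelial growth factor, was not tested and read 11.8, 24.2 and 27.1 in Ngn2-GFP positive cells, against 7.96, 0.338 and 6.6 in Lmx1a-GFP negative cells, all under the filter level, and Ngn2-GFP positive cells were at least 1.52-fold brighter. Pericyte and mesenchymal genes summed to 77 to 126 in Ngn2-GFP positive and 99 to 144 in Lmx1a-GFP negative cells. Their brightest tested genes, Col1a2 and Rgs5, overlapped between the groups, and Dcn and Lum were under the filter level on all arrays. Both of these sums were low, and their ranges overlapped between the groups.

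Markers of neurons and of dividing cells were measured in both populations. Of 10 genes of post-mitotic neurons none passed in either direction, with a median of -0.22, or 0.22 in the batch-block fit, and summed signals of 14849, 15658 and 22683 in Ngn2-GFP positive cells, against 19356 to 22368 in Lmx1a-GFP negative cells. At an unadjusted p under 0.05, 1 was lower and 2 were higher in limma, against 5.08% and 5.68% of all genes. Of the 10, 7 were negative and 3 positive, and the groups were apart for 1 as lower and 2 as higher, against 7.25% and 8.21% of all genes. The 2 brightest, Tubb3 (-0.3, SE 0.27) and Dcx (-0.45, SE 0.28), are genes of the neuronal cytoskeleton. In the batch-block fit they differed by 0.26 and 0.1. Of 7 tested genes of dividing cells none passed, with 5 negative, 2 positive and a median of -0.21. The groups were apart for 2 of the 7 as lower and 1 as higher. At an unadjusted p under 0.05 in limma, 2 of them were lower and 0 higher, against 5.08% and 5.68% of all genes. The brightest were Mki67 (-0.32, SE 0.23) and Pcna (-0.21, SE 0.23). The neuronal sum was thus below the Lmx1a-GFP negative range on Ngn2-GFP positive replicates 1 and 2 and above it on replicate 3. The sum of the radial glia markers was below its own Lmx1a-GFP negative range on all 3 replicates. Most of that sum came from Fabp7 and Vim. On replicate 3 Fabp7 (2346) was below its Lmx1a-GFP negative range of 3471 to 3772. Vim (2747) was there within its Lmx1a-GFP negative range of 2606 to 3482. Of 8 genes on the list for midbrain floor plate progenitors, 3 were higher past the threshold, Lmx1a, En1 (1.36) and Foxa1 (1.05). Of the same list 1, Otx2 (-1.06), was lower, against 0.423% and 0.639% of all tested genes passing as higher and as lower. None of the 4 passed in the batch-block fit (adjusted p = 0.121 for Lmx1a, 0.236 for En1, 0.208 for Foxa1 and 0.215 for Otx2). With an array other than Ngn2-GFP positive replicate 3 left out, adjusted p was 0.0524 to 0.152 for Foxa1 and 0.055 to 0.141 for Otx2, and En1 missed the threshold without Ngn2-GFP positive replicate 2 (0.057). Lmx1a and Corin (3.11, SE 1.06, not past the threshold) were under the filter level on all Lmx1a-GFP negative arrays. Both were tested only through the Ngn2-GFP positive arrays, so they had to be higher there. They were at least 9.65-fold (Lmx1a) and 1.41-fold (Corin) brighter. The median of the list, 1.05, counts both. The reporter of Lmx1a was used in the sort of the Lmx1a-GFP negative cells.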

How the data were processed

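Total RNA from sorted cells was labelled with biotin and hybridized to 1 array per sample, per the labels' protocols. The table deposited by the authors holds the intensity of 45101 probe sets on 6 arrays, on a linear scale. The submitters' processing notes name MAS5, R 2.14.2 and limma, without saying what each did. Every array has a trimmed mean of 100 (2% trimmed at each end), so differences in total RNA per cell are not measured. The number of arrays limits the precision.

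The 64 control probe sets were left out of tests. Of the other 45037, 34945 had 1 gene symbol, 932 several and 9160 none. A floor of 1 was put under the signals before log2. Tests took in the 27738 probe sets that passed the filter, signal above the 40th percentile of the array on 3 or more arrays. Each of 12044 genes was represented by the one of highest mean log2 signal. A group under that percentile on all its arrays has only a bound, the other group's mean over the mean of, per array, the higher of signal and percentile. The test was that of limma 3.58.1 (R 4.3.3), two-sided, using lmFit, then eBayes with a mean-variance trend. P-values were adjusted by the Benjamini-Hochberg method over every tested gene, or over all tested probe sets where the text says so. The limma fit was also run on simulated data with independent noise and no spike-in batch, so that run does not bear on the batch. The members, lists, tests and alternatives were chosen with earlier results of these data known. Named genes were all members with every probe set, and of each other list those past the threshold (at most 4) or else the 2 brightest. The 5 genes nearest in profile to the members and to Fabp7 were also named. Sox2, Hes5, Prom1, Sox21, Notch1, Nefm, Ina, Ttyh3, Mdk, Edn1, Edn3, Gfap, Corin and Slc4a1, and the untested defining markers Pecam1, Cdh5, Kdr, Dcn and Lum, were added after values were seen. The plots were made in matplotlib 3.10.9.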

Additional observations from a re-analysis of the deposited data

How the results depend on the processing

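Alternatives were another normalization (quantile, or centring on the array median), no filter or one at the 60th percentile, log2 of the signal plus 32, no mean-variance trend, averaging or restricting probe sets, the replicate block, a block for the spike-in batch, only the 4 arrays of its higher side, and leaving out each array. The count of 1 member lower became 0 with median centring, no filter, no trend, the batch block and the higher side alone, and 2 with averaged probe sets. With an array left out it was 0 to 3. The count of probe sets lower, 1, became 2 with quantile normalization and with log2 of the signal plus 32. It became 0 with no filter, the 60th percentile, no trend, the batch block and the higher side alone, and was 0 to 6 with an array left out. No member or probe set was higher in any fit. The median of the members was -0.31 with the batch block and -0.24 on the higher side alone, and -0.92 to -0.5 with an array left out; under each other alternative it moved by less than the spread between arrays (SD 0.32). After seeing the data, probe sets above the filter level in only 1 group were also left out, and 11 of 26 radial glia probe sets, in place of 12 of 27, had all Ngn2-GFP positive arrays below all Lmx1a-GFP negative ones.

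Among single genes, Nes turned positive without Ngn2-GFP positive replicates 2 (0.002) or 3 (0.06) and without Lmx1a-GFP negative replicates 1 (0.24) or 3 (0.08), over a range of -0.33 to 0.24 with an array left out. Mfge8 did so with the batch block and on the higher side alone (0.52 in both), without Ngn2-GFP positive replicates 1 (0.09) or 2 (0.13) and without Lmx1a-GFP negative replicate 3 (0.15), over a range of -0.3 to 0.15 with an array left out. Ddah1 did so with the batch block and on the higher side alone (0.15 in both), and Vim without the probe sets marked _s_at, _x_at and _a_at (0.01). The cause was not tested. Mfge8 has no other probe set, so it gave no value in that last fit. The count of genes past the threshold over the whole table, 128, was 19 with no filter, 42 with no trend, 34 with the batch block, 40 on the higher side alone and 57 to 417 with an array left out.

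Replicate numbers are shared between the groups but mark different mouse lines, and same-numbered arrays deviated together at correlations of 0.139, -0.096 and 0.032. Not every array correlated best with its own number. With the replicate block 1 member was lower, Ednrb (-1.61, adjusted p = 0.00555) and not Fabp7 (adjusted p = 0.073), 1 probe set was lower, Ednrb 1437347_at (adjusted p = 0.0123) and not Hmga2 1450780_s_at (0.0622), the median of the members was -0.68, and 127 genes passed over the whole table.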
